A study of Mus musculus with 39 samples.

Results

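Epididymal adipose tissue, the visceral fat pad beside the testis, was compared between long and short high fat feeding of C57BL/6J mice. The members were 16 of the 39 arrays in the series. They were the arrays of mice on the 4 high fat, high sucrose diets at weeks 3, 9, 15 and 18. The choice was by diet and time point, but it was not blind to the data. Some weeks between 3 and 18 were left out for measured values given below, and earlier results of these data were known. The 8 arrays of weeks 15 and 18 (late) were set against the 8 arrays of weeks 3 and 9 (early), with diet as a block. All mice were weaned at 3 to 4 weeks of age and were then divided among the diets. HFC was a diet with 60% of calories from fat and added sucrose. Mice of HF5, HF20 and HF75 ate that diet and were also given KAL-1, an ethno-botanical formulation, at 5, 20 and 75 µg. LFC, the control diet, had 10% of calories from fat. Each diet and time point had 1 array, although the record speaks of 3 biological replicates and of 5 animals killed per group every 3 weeks. Whether an array held RNA of 1 mouse or of several is not given in the sources used here. The 4 diets were therefore the replicates of a week. For late against early, a p-value was set against the spread left after diet, which included differences between the weeks of a period. For pairs of weeks it was set against the spread left after diet and week.

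Fat pads store triglyceride in adipocytes, which take up fatty acids from blood and also make them from glucose in the pathway called de novo lipogenesis. The stroma around them holds fibroblast-like progenitors, vessels, macrophages and lymphocytes, and a covering of mesothelium. In mice on a high fat diet this depot is known for adipocyte enlargement, for macrophages gathering around dying adipocytes, and for collagen deposition. In a piece of whole tissue, fewer cells of a type and less RNA per cell cannot be told apart.

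A level is given throughout as the log2 processed intensity of a probe minus the 75th percentile of its array, so 0 is the brightness at that percentile. A difference is a difference of such levels. Between 53.7% and 77.2% of spots were well above background on the 16 arrays, and the median rank correlation of an array with the others was 0.906 to 0.952. The adipocyte list (18 genes such as Adipoq, Plin1 and Lipe) had a median level of 2.77 to 5.99 on the 16 arrays, above the 75th percentile on each. The HFC week 12 array, left out as described below, had 2.99, so this level does not tell sound arrays from faulty ones. The arrays of each week shared a scan date and no date held more than 1 of these weeks, so week and scan date cannot be told apart. Weeks 6 and 12 were left out. At week 6 the visceral marker Wt1, a transcription factor of mesothelium and visceral fat, stood at -5.38, -7.79, -1.40 and -7.57 on the HFC, HF5, HF20 and HF75 arrays, against -0.60 to 2.36 on the 16 arrays used. At week 12 the HFC array had 10531 spots marked as outliers, against 21 to 188 on the 16 arrays used.

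Late against early feeding gave few differences. Of 27268 probes tested, 1 passed an adjusted p of 0.05 (limma, two-sided, Benjamini-Hochberg adjustment, 0.00367% called) and 1440 had an unadjusted p below 0.05 (5.28%, where 1363.4 would be expected with no difference at all). Among those 1440, 576 were higher late (2.11% of probes) and 864 were lower late (3.17%). The median size of a difference was 0.26 and the median standard error 0.34. With the time point as a random block, 0 probes passed and 645 had an unadjusted p below 0.05 (2.37%). In 12 of the 16 fits that left out 1 array, 0 probes passed. Without the HFC week 9 array 2 probes passed, and without the HFC week 15 array 18 passed, all lower late.

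The probe that passed was 1700040F15Rik, a predicted transcript of unknown role. Its level was lowest -8.84, median -7.18 and highest -5.55 in the 8 late arrays, and lowest -5.24, median -4.28 and highest -3.60 in the 8 early arrays. The groups did not overlap, and 3 probes higher late (0.011%) and 15 lower late (0.055%) shared that property. It fell by 2.79 (SE 0.36, limma adjusted p = 0.0429), and by between 1.84 and 3.57 within each diet. The probe was dim: it was well above background on 6 of 8 early arrays and 2 of 8 late arrays. On the LFC arrays it stood at -5.27 at week 9, -5.26 at week 15 and -7.15 at week 18, so the low level was shared at week 18 but not at week 15.

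Cxcl13, the chemokine that draws B cells into lymphoid follicles, had the smallest p among probes higher late. Its level at week 3 was -4.92 on HFC, -1.78 on HF5, -3.59 on HF20 and -3.33 on HF75, and at week 9 it was -3.90, -1.76, -0.72 and -2.19 in the same order of diets. At week 15 the levels were 0.20, 3.24, 0.68 and 0.25, and at week 18 they were -0.42, 0.81, -1.54 and -0.07. Every late array lay above the early median, and within each diet both late arrays lay above both early ones except on HF20, where week 18 lay below week 9. The mean was 0.39 ± 1.36 late and -2.77 ± 1.39 early (SD, n = 8 each). The difference was 3.17, a ratio of 8.99-fold (SE 0.53, 95% interval 2.01 to 4.33), and it missed the threshold over all probes (limma adjusted p = 0.119, and 0.941 with the time point as a random block). LFC followed a like order, with levels of -2.10 at week 9, 2.30 at week 15 and 0.32 at week 18. The bases before its transcription start (GRCm38.p6, chr5:95956689-95956938, plus strand, RefSeq) are shown because the gene had the smallest p of the probes higher late, with a TATAAA box 46 bases before the start in capitals.
Cxcl13: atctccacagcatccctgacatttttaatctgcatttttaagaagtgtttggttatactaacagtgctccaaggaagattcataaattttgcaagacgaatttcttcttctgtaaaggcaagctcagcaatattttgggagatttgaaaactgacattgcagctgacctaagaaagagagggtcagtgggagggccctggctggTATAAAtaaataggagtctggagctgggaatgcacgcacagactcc
A TATAAA on either strand was found in 12.4% of 32851 promoters of this length, and a match is a description only.

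**Figure D1:**
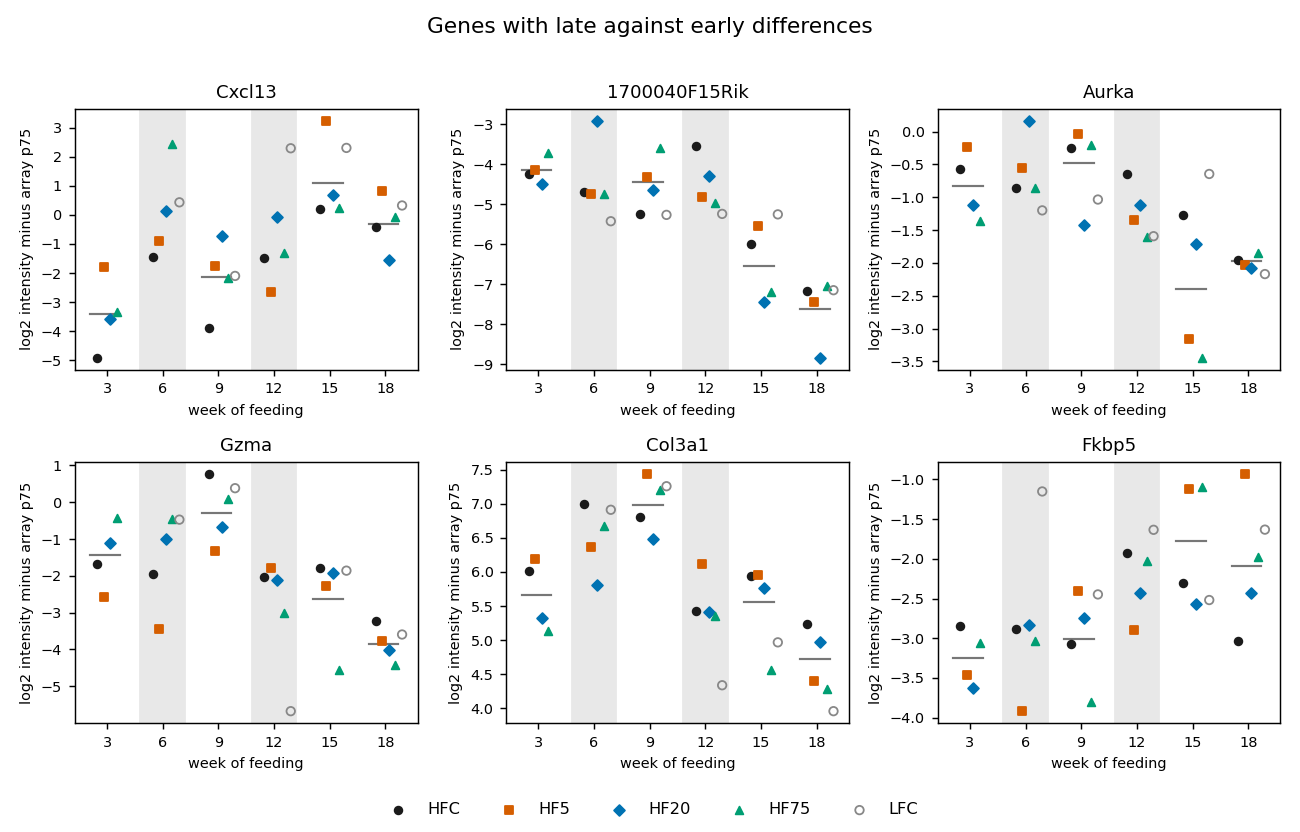
Level (log2 intensity minus the array's 75th percentile) of 6 genes against week of feeding, each point an array with its diet by colour and shape, open circles LFC, and short bars the mean of the 4 high fat arrays of a week. The shaded weeks 6 and 12 were not in the comparison. 1700040F15Rik separates late from early arrays, Cxcl13 lies higher at weeks 15 and 18, and Aurka, Gzma and Col3a1 lie lower with overlapping points.

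Other probes with the smallest p in their direction did not pass. Fkbp5, a glucocorticoid-induced co-chaperone, was higher late by 1.2 (SE 0.30, limma adjusted p = 0.615), with levels of -3.03 to -0.93 late and -3.80 to -2.41 early. Glt28d2, a glycosyltransferase domain gene, was higher by 1.11 (SE 0.29, limma adjusted p = 0.666), but its direction turned with another background correction. Lower late were LOC100048689, predicted to resemble a natural killer cell receptor (difference -2.67, SE 0.40, limma adjusted p = 0.116), and Gm2138, a predicted gene (-2.90, SE 0.46, limma adjusted p = 0.119). Both were dim late, being well above background on 2 and 1 of 8 late arrays, against 7 and 8 early. Predicted transcripts were frequent among the lower probes: they made up 21 of the 50 lower probes with the smallest p (42%) and 6 of the 50 higher ones (12%), against 22% of all probes tested.

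Among the genes whose arrays did not overlap between periods, 3 were looked at after their values had been seen. Hells, the lymphoid specific helicase of chromatin remodelling, had levels of -7.39 to -4.29 late and -3.78 to 2.10 early, a difference of -3.64 (SE 0.74, limma adjusted p = 0.240), and was well above background on 4 of 8 late arrays. Cul3, the scaffold of a ubiquitin ligase, had the smallest standard error of the 3, with levels of -0.16 to 0.61 late and -1.06 to -0.29 early and a difference of 0.78 (SE 0.20, limma adjusted p = 0.680). Sirt7, a nuclear deacylase, differed by -0.99 (SE 0.27, limma adjusted p = 0.693). None of these 3 passed the adjusted threshold.

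T and NK cell genes lay lower late without a call, and B and plasma cell genes did not. Of 10 B and plasma cell genes 7 were higher late (median difference 0.50, 0 at an unadjusted p below 0.05). The T and NK cell list held 13 tested genes, of which 12 were lower late, 4 with an unadjusted p below 0.05 and 0 past the adjusted threshold. Its median difference was -1.17, against 0.02 over all probes. Gzma, a granule protease of cytotoxic cells, had levels of -4.56 to -1.79 late (median -3.50) and -2.59 to 0.77 early (median -0.89). That is a difference of -2.39 (SE 0.51, limma adjusted p = 0.284). Klrd1, an inhibitory receptor chain of natural killer cells, differed by -2.19 (SE 0.57, limma adjusted p = 0.660) and Nkg7, a granule protein, by -1.92 (SE 0.58, limma adjusted p = 0.790). The last of the 4 was Thy1 (-1.17), which also stood in the adipose progenitor list. The exception was Cd4, higher by 0.60. The list mean by week was -2.49 ± 0.61 at week 3, -0.38 ± 0.32 at week 9, -2.49 ± 1.00 at week 15 and -3.36 ± 0.71 at week 18 (SD, n = 4 each). Week 9 therefore stood above the other 3 weeks, and weeks 3 and 15 had the same mean.

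Matrix genes lay lower late in the same manner. Of 20 collagen and matrix genes 17 were lower late, 7 with an unadjusted p below 0.05, and the median difference was -0.67. The list mean was 2.98 ± 0.29 at week 3, 3.57 ± 0.75 at week 9, 3.19 ± 0.38 at week 15 and 2.80 ± 0.06 at week 18 (SD, n = 4 each). Week 9 was again the highest, and week 15 lay above week 3. Col3a1, the type III fibrillar collagen, had levels of 4.29 to 5.96 late and 5.13 to 7.44 early, a difference of -1.18 (SE 0.37, limma adjusted p = 0.832). Col1a2, a chain of type I collagen, differed by -1.25 (SE 0.38, limma adjusted p = 0.798), Col1a1 by -1.12, Col6a2 by -0.95 and Col5a1 by -0.94. Col3a1 was saturated on 5 and Col1a2 on 4 of the 16 arrays, so those differences may be compressed. Col15a1, a collagen of the basement membrane zone, differed by -0.83 (SE 0.30, limma adjusted p = 0.856), while the type IV basement membrane chains Col4a1 and Col4a2 differed by -0.01 and -0.29. The members higher late were Thbs1 at 0.84, Postn at 0.46 and Tnc at 0.13.

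Genes of cell division were lower late in 18 of 20 cases, 4 with an unadjusted p below 0.05, with a median difference of -0.41. Aurka, a mitotic kinase, had levels of -3.45 to -1.27 late (median -1.99) and -1.43 to -0.03 early (median -0.41). Its difference was -1.54 (SE 0.33, limma adjusted p = 0.284). Ccna2, the cyclin of DNA replication, differed by -1.03 (SE 0.33, limma adjusted p = 0.832), Birc5 by -0.80 and Plk1 by -0.76, while Pcna (0.41) and Tyms (0.13) were higher. Antigen presentation and interferon genes were lower in 14 of 15 cases, 3 with an unadjusted p below 0.05 and a median of -0.49. Ifit3, an interferon-induced gene, showed the smallest p of them, at -1.21 (SE 0.34, limma adjusted p = 0.711). The antigen presentation list mean was 2.13 ± 0.29 at week 3, 2.80 ± 0.21 at week 9, 2.68 ± 0.38 at week 15 and 1.59 ± 1.12 at week 18 (SD, n = 4 each). Week 15 lay above week 3 in this list too. All 10 mesothelium genes were higher late with a median of 0.53 and none at an unadjusted p below 0.05. The mesothelium list mean was -1.43 ± 1.93 at week 3, -0.14 ± 0.98 at week 9, 0.18 ± 0.66 at week 15 and -0.36 ± 0.77 at week 18 (SD, n = 4 each). Week 3 thus stood below the other weeks, and week 18 lay below week 9. The late minus early medians of these 5 lists kept their sign under the other scalings tried and when any single array was left out. Their size was not always kept. The mesothelium median was 0.12 without HF20 week 3, 0.29 without HF75 week 3, 0.81 without HFC week 3, 0.84 without HFC week 18 and 0.23 with normexp correction. That of antigen presentation was -0.28 without HF20 week 18 (-0.30 with normexp correction), and that of cell division was -0.25 without HF5 week 18. With normexp correction the T and NK cell median was -0.68.

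The adipocyte, lipogenesis, cytokine and macrophage lists had late minus early medians smaller in size than the lists above, where all probes had 0.02. The adipocyte list differed by -0.04 (7 of 18 higher), de novo lipogenesis by -0.22 (6 of 15 higher), the cytokine list by 0.05 (9 of 16 higher) and the macrophage list by 0.14 (11 of 18 higher). These 4 medians changed sign when single arrays were left out, and that of the adipocyte list also with quantile normalization (0.03) and normexp correction (0.09). Among macrophage genes Mertk, a receptor for the uptake of dead cells, was higher by 0.85, while Aif1 (-0.80) and Cx3cr1 (-0.88) were lower, each at an unadjusted p below 0.05 and an adjusted p of 0.856 (limma). Msr1, a scavenger receptor of lipid-laden macrophages, was higher by 1.07, and Trem2, which marks such cells, differed by 0.04.

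**Figure D2:**
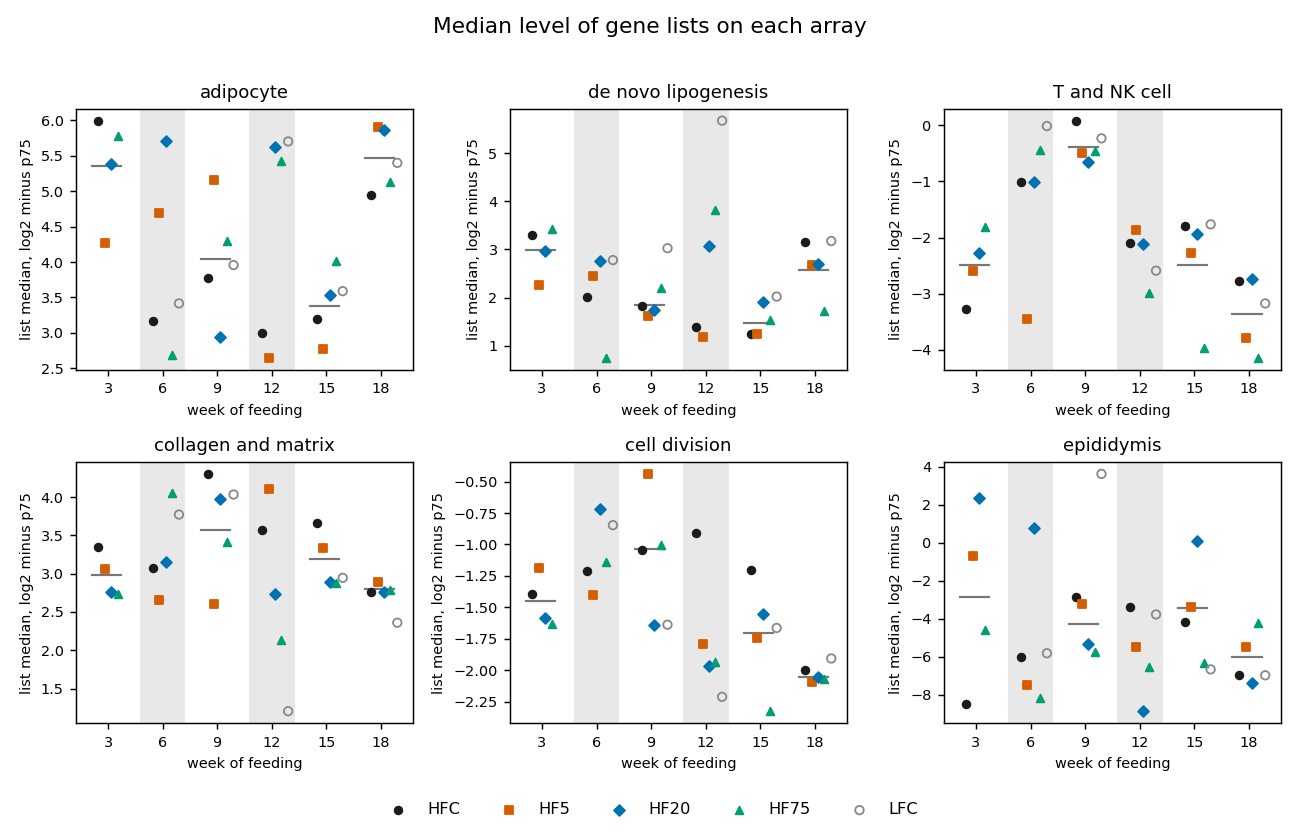
Median level (log2 minus the array's 75th percentile) of the genes of 6 lists on each array against week of feeding, with diets by colour and shape, open circles for LFC and bars for the mean of the 4 high fat arrays. Adipocyte and lipogenesis medians are high at weeks 3 and 18 and low at weeks 9 and 15, while the T and NK cell list peaks at week 9.

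More probes were called between the weeks inside a period than between the periods, but against unlike spreads. The spread for pairs of weeks had week taken out, and that for late against early did not. With week taken out, pairs of weeks across the periods gave 0 to 413 calls, as given below. Week 9 differed from week 3 at 444 probes (1.63%), 340 higher (1.25%) and 104 lower (0.381%), and week 18 differed from week 15 at 47 probes (0.172%), 38 higher (0.139%) and 9 lower (0.033%). At an unadjusted p below 0.05 there were 4504 (16.5%, with 9.8% higher and 6.72% lower at week 9) and 4751 (17.4%, with 8.81% higher and 8.61% lower at week 18). The 2 differences share no array, though they share an estimate of spread. Across the 27268 probes, which are not independent of each other, they were related with r = -0.39 (Spearman's rank correlation -0.36), and 62.8% of probes had opposite signs. Of the 340 probes called higher at week 9, 301 were lower at week 18 than at week 15. Of the 104 called lower at week 9, 59 were higher at week 18. Both sets of calls depended on background handling, since 0 probes passed in either comparison after normexp correction of the mean signal, under which the median difference of all probes was 0.36 and -0.25, in place of 0.02 and -0.01. They depended on single arrays as well. Between weeks 9 and 3, 3 probes passed without the HF75 week 9 array, 32 without HFC week 9, 73 without HF75 week 3, 103 without HF20 week 3, 169 without HF20 week 9, 199 without HFC week 3, 277 without HF20 week 15 and 691 without HF75 week 15. Between weeks 18 and 15, 0 passed in 11 of 16 such fits (without any of the HF5, HF20 and HF75 week 18, HFC, HF5 and HF20 week 15, HFC, HF20 and HF75 week 9 or HF20 and HF75 week 3 arrays). In the others 1 passed without HF75 week 15, 251 without HF5 week 3, 256 without HF5 week 9, 422 without HFC week 3 and 843 without HFC week 18.

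Crossing the periods, week 15 differed from week 3 at 108 probes (0.396%), 64 higher and 44 lower, and week 18 from week 9 at 413 (1.51%), 108 higher and 305 lower. Week 15 differed from week 9 at 6 probes (0.022%) and week 18 from week 3 at 0, with 1240 at an unadjusted p below 0.05. These 4 pairs were compared after the other results had been seen. They share arrays with each other and with the comparisons above.

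**Figure D3:**
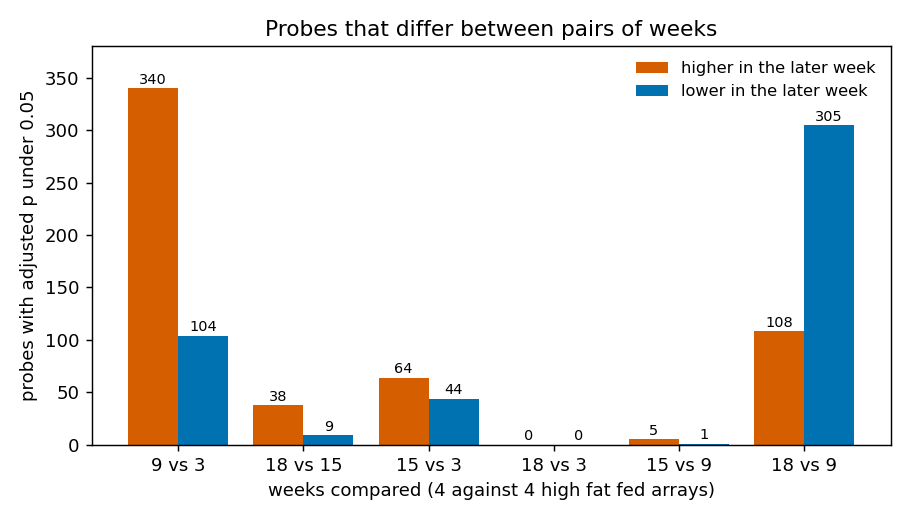
Bars start at 0 and count the probes of 27268 with an adjusted p under 0.05 (limma) for each pair of weeks, 4 arrays against 4, split by direction. Weeks 9 and 3 (340 higher, 104 lower) and weeks 18 and 9 (108 higher, 305 lower) differ at the most probes, and weeks 18 and 3 differ at 0.

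Genes of fatty acid synthesis moved in opposite directions in the 2 periods. All 15 genes of de novo lipogenesis were lower at week 9 than at week 3 (median -1.37, 3 past the threshold, 12 at an unadjusted p below 0.05), and 14 were higher at week 18 than at week 15 (median 2.10, 3 past the threshold, 13 at an unadjusted p below 0.05). Thrsp, a nuclear regulator of lipogenic genes, had levels on HFC, HF5, HF20 and HF75 of 6.07, 3.93, 4.44 and 5.45 at week 3, and of 2.53, 1.61, 2.19 and 3.76 at week 9. At week 15 they were 2.30, 1.89, 3.02 and 2.07, and at week 18 they were 4.94, 6.14, 5.86 and 5.39. No week 3 array was below a week 9 array, and every week 18 array was above every week 15 array. It fell by 2.45 from week 3 to week 9 (SE 0.52, 5.47-fold lower, limma adjusted p = 0.036) and rose by 3.26 from week 15 to week 18 (SE 0.52, 9.61-fold, limma adjusted p = 0.037). Late minus early it differed by 0.20 (SE 0.83), since the high and low weeks fell 1 in each period.

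Acaca, the cytosolic acetyl-CoA carboxylase that commits carbon to fatty acids, fell by 2.69 at week 9 (SE 0.49, limma adjusted p = 0.024) and rose by 3.18 at week 18 (SE 0.49, limma adjusted p = 0.037). Its levels at week 3 were 1.65 on HFC, -0.86 on HF5, 0.86 on HF20 and 1.40 on HF75, against -2.23, -1.32, -2.18 and -2.00 at week 9. At week 15 they were -2.39, -2.46, -1.31 and -2.43, and at week 18 they were 0.82, 0.89, 1.71 and 0.70. HF5 at week 3 was the array nearest to the week 9 levels. Mlxipl, the glucose-sensing factor ChREBP, fell by 3.45 at week 9 (SE 0.75, limma adjusted p = 0.041) and was higher by 3.79 at week 18 without passing (SE 0.75, limma adjusted p = 0.055). Scd1, the desaturase that makes monounsaturated fatty acids, was lower by 1.56 at week 9 (limma adjusted p = 0.076) and rose by 2.70 at week 18 (SE 0.40, limma adjusted p = 0.037). Fasn, fatty acid synthase, had probes that moved the same way but differed in size and in passing. The brighter probe, which stood for the gene in the list, was saturated on 6 arrays, lacked its HF75 week 18 spot as an outlier, and differed by -1.33 and 2.30 without passing. The dimmer probe, saturated on 0 arrays, fell by 3.22 at week 9 and rose by 3.59 at week 18 (limma adjusted p = 0.025 and 0.039). The other 3 probes of Acaca, all dimmer, differed by -1.53 to -1.20 and by 1.43 to 1.94 and passed in neither.

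Thrsp and Mlxipl moved together, so the RefSeq sequences before their starts (GRCm38.p6) are shown, Thrsp from chr7:97417551-97417800 on the minus strand and Mlxipl from chr5:135089640-135089889 on the plus strand. Capitals mark the motifs searched on both strands that were found: the CCAAT box (written ATTGG where it lies on the other strand), the GC box GGGCGG and the E-box CACGTG.
Thrsp: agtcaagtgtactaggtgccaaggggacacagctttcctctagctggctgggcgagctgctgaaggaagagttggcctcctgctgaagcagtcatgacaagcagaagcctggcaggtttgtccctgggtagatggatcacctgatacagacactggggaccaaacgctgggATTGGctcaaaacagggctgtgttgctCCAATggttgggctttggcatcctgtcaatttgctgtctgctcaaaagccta
Mlxipl: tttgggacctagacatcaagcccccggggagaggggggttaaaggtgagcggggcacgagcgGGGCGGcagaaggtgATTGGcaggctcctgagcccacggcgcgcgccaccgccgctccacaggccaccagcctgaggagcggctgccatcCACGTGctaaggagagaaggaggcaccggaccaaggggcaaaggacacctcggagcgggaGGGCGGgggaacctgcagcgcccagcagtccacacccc
Thrsp had CCAAT boxes 79 and 52 bases before the start. Mlxipl had a CCAAT box at 173, GC boxes at 188 and 38, and an E-box at 98 bases. These motifs were present in 33.8% (CCAAT), 32.7% (GGGCGG) and 6.02% (CACGTG) of 32851 promoters of this length, and the sterol regulatory element TCACNCCAC was in neither window and in 1.05% of all. The motifs did not overlap in these windows.

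**Figure D4:**
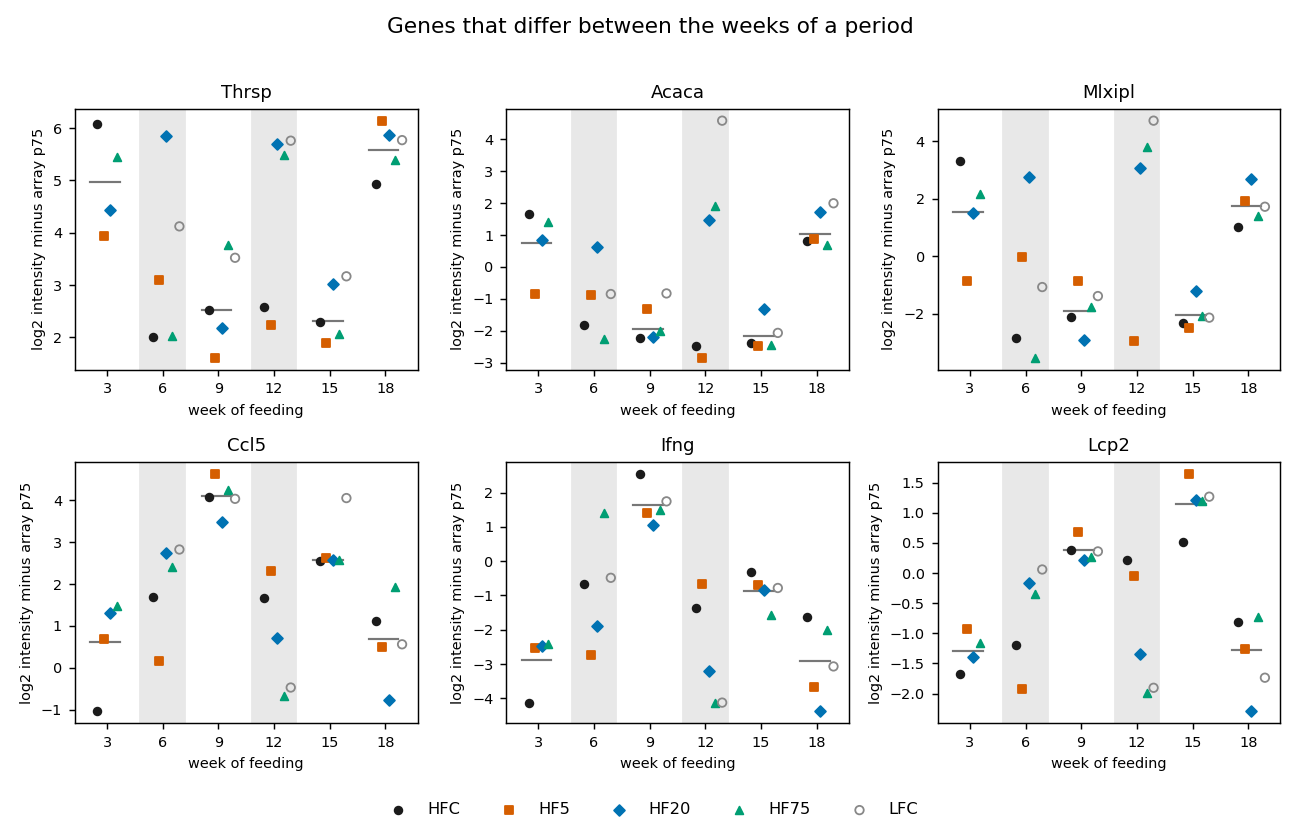
Level (log2 intensity minus the array's 75th percentile) of 6 genes against week, with diets by colour and shape, open circles for LFC and bars for the mean of the 4 high fat arrays. Thrsp, Acaca and Mlxipl are high at weeks 3 and 18 and low at weeks 9 and 15, and Ccl5, Ifng and Lcp2 follow the opposite order.

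Other adipocyte functions kept the same order of weeks. The adipocyte list had a mean level of 5.36 ± 0.76 at week 3, 4.04 ± 0.93 at week 9, 3.38 ± 0.53 at week 15 and 5.46 ± 0.50 at week 18 (SD, n = 4 each). Of its 18 genes 15 were lower at week 9 (0 past the threshold) and 18 were higher at week 18 (1 past it). The gene that passed was Adipoq, adiponectin, which rose by 2.65 at week 18 (SE 0.42, 6.26-fold, limma adjusted p = 0.037) and was lower by 1.17 at week 9 (limma adjusted p = 0.186), with saturation on 6 of 16 arrays. Lep, leptin, which rises with fat mass, differed by -2.30 and 3.29 and passed in neither (limma adjusted p = 0.113 and 0.061). Plin1, the lipid droplet coat, differed by -1.88 and 3.04, and Pparg, the master factor of adipogenesis, by -0.15 and 0.67, passing in neither.

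Branched chain amino acid breakdown, a mitochondrial route active in fat cells, was lower at week 9 in all 11 genes (median -1.15, 1 past the threshold) and higher at week 18 in all 11 (median 2.0, 0 past it). Dbt, the acyltransferase core of the branched chain dehydrogenase, fell by 2.52 at week 9 (SE 0.47, limma adjusted p = 0.025) and was higher by 1.87 at week 18 (limma adjusted p = 0.079). Ppargc1a, a coactivator of mitochondrial genes, fell by 2.25 at week 9 (SE 0.45, limma adjusted p = 0.030), while a dimmer probe of it was lower by 1.49 without passing. Pde3b, the phosphodiesterase through which insulin restrains lipolysis, rose by 2.88 at week 18 (SE 0.48, limma adjusted p = 0.039). Orm1, an acute phase glycoprotein, rose by 3.57 at week 18 (SE 0.60, limma adjusted p = 0.039). Phgdh, the entry enzyme of serine synthesis, rose by 4.55 at week 18 (SE 0.72, 23.4-fold, limma adjusted p = 0.037). Its week 15 levels of -1.99 on HF5, -2.09 on HF20 and -1.52 on HF75 were below every other array of the 16, while HFC at 0.91 was not.

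Cytokine and chemokine genes ran the other way. All 16 cytokines and chemokines were higher at week 9 than at week 3 (median 2.41, 2 past the threshold) and lower at week 18 than at week 15 (median -2.18, 0 past it). Ccl5, a chemokine of T cells, had levels of -1.03, 0.68, 1.30 and 1.48 at week 3 on HFC, HF5, HF20 and HF75, and of 4.07, 4.63, 3.48 and 4.24 at week 9. At week 15 they were 2.56, 2.62, 2.58 and 2.57, and at week 18 they were 1.11, 0.50, -0.78 and 1.94. It rose by 3.49 at week 9 (SE 0.55, 11.3-fold, limma adjusted p = 0.017) and was lower by 1.89 at week 18 without passing. Ifng, interferon gamma, described after its values were seen, rose by 4.51 at week 9 (SE 0.60, 22.8-fold, limma adjusted p = 0.010). Il5, the eosinophil growth factor, was not well above background on any week 3 array and was at least 19.2-fold higher at week 9 (limma adjusted p = 0.010).

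Ccl8, a monocyte chemoattractant, rose by 2.46 at week 9 (SE 0.40, 5.51-fold, limma adjusted p = 0.017), from levels of -0.77, -0.53, -0.05 and -0.87 to 1.00, 3.02, 1.93 and 1.66. Every week 9 array lay above every week 3 array, and at weeks 15 and 18 the levels stayed between 0.45 and 2.56. Its bases before the start (GRCm38.p6, chr11:82114935-82115184, plus strand, RefSeq) are printed because it was a chemokine called higher at week 9, with TATAAA, 32 bases before the start, in capitals.
Ccl8: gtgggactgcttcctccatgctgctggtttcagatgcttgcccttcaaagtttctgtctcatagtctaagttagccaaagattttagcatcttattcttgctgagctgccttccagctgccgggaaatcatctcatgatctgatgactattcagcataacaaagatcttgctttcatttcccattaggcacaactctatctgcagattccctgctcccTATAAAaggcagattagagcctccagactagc
The core motif of NF-kappa B that was searched was in neither the Ccl8 nor the Cxcl13 window and in 1.41% of all promoters.

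Lymphocyte genes were higher at week 9. Of the 13 T and NK cell genes 12 were higher (median 2.31), 10 at an unadjusted p below 0.05 and 5 past the threshold. Those 5 were Cd3d, a chain of the T cell receptor complex (2.91, SE 0.54, limma adjusted p = 0.025), Gata3 (1.99), Gzmb (2.62), Klrd1 (2.38) and Thy1 (1.67, with a dimmer probe at 0.96 that did not pass). Thy1 also stood in the adipose progenitor list, so it is not a marker of lymphocytes alone. Jchain, which joins secreted antibodies, rose by 3.96 (SE 0.73, 15.5-fold, limma adjusted p = 0.025), and 28 of the 340 probes called higher were of immunoglobulin genes (8.24%), against 0 of 104 called lower and 0.246% of all probes. Near-identical immunoglobulin segments can share hybridization, so these are not 28 separate genes.

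Most macrophage, matrix and progenitor genes were higher at week 9, with few calls, and those of vessels and antigen presentation were split. In the endothelium and angiogenesis list 5 of 11 were higher (median -0.05, 0 at an unadjusted p below 0.05). Antigen presentation and interferon genes were higher in 8 of 15 cases (median 0.15) and acute phase and complement genes in 5 of 11 (median -0.17), with 0 past the threshold in either. Of 18 macrophage genes 14 were higher (median 1.01, 0 past the threshold), Cd68 by 1.58 and Adgre1 by 1.01. In the lipid associated macrophage list 11 of 13 were higher (median 1.13, 0 past it), Trem2 by 1.82 and Itgax by 2.26. Collagen and matrix genes were higher in 18 of 20 cases (median 0.82), where Lum, a collagen-organising proteoglycan, rose by 1.89 (SE 0.40, limma adjusted p = 0.037). Mmp3, a matrix protease, rose by 2.17 (SE 0.31, limma adjusted p = 0.013), and Pdgfra, the receptor that marks adipose progenitors, rose by 2.11 (SE 0.36, limma adjusted p = 0.019).

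Between weeks 15 and 18 the calls in the lower direction were few. Lcp2, an adaptor of T cell and platelet signalling, fell by 2.42 at week 18 (SE 0.34, 5.34-fold lower, limma adjusted p = 0.037) after a rise of 1.68 at week 9 (SE 0.34, limma adjusted p = 0.032). Its levels at week 15 were 0.51, 1.65, 1.21 and 1.19 on HFC, HF5, HF20 and HF75, and at week 18 they were -0.81, -1.26, -2.29 and -0.74. Spic, a factor of iron-handling macrophages, fell by 3.0 (SE 0.43, limma adjusted p = 0.037) after a rise of 1.98 (SE 0.43, limma adjusted p = 0.041). Cell division genes were lower at week 18 in 18 of 20 cases (median -0.89, 11 at an unadjusted p below 0.05, 0 past the threshold).

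HF20 at week 18 stood apart. Its cytokine list median was -3.0 and its immediate early list median 0.05, against lowest values of 2.44 and 4.34 on the other late arrays. Without it the week 18 minus week 15 median of the cytokine list was -0.36 and that of the immediate early list 0.17, in place of -2.18 and -1.32. HFC at week 3 was low in the same lists, with medians of -2.12 and 2.04 against 1.82 and 4.48 for the lowest of the other early arrays. Without it the week 9 minus week 3 medians were 1.47 and 0.25, in place of 2.41 and 1.09. The lipogenesis medians were less moved, at 1.72 without HF20 week 18 and -1.22 without HFC week 3.

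**Figure D5:**
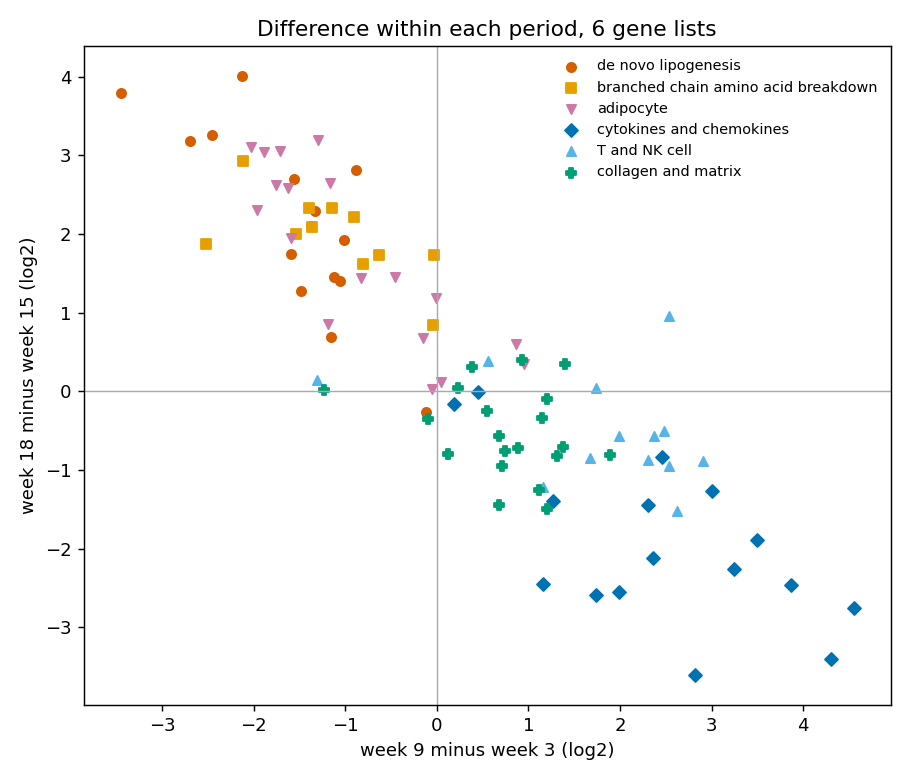
Each point is a gene of 6 lists, with its week 9 minus week 3 difference on the horizontal axis and its week 18 minus week 15 difference on the vertical axis, both in log2 units with lines at 0. Of the lipogenesis genes 14 of 15, all 11 branched chain amino acid genes and most adipocyte genes lie in the upper left, and cytokine and most T and NK cell genes in the lower right.

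Markers of neighbouring tissue varied between arrays. The epididymis list of 7 genes ranged over list medians of -8.51 to 2.34 at week 3, -5.75 to -2.85 at week 9, -6.31 to 0.08 at week 15 and -7.37 to -4.23 at week 18, with 0 genes past the threshold in any comparison. Gpx5, secreted by the epididymal head, had its highest levels on HF20 at week 3 (4.26), HF20 at week 15 (2.62) and HF5 at week 3 (1.21). All 4 blood genes were higher at week 9 (median 2.21), of which the alpha globin Hba-a1 passed, rising by 2.23 (SE 0.45, limma adjusted p = 0.031, saturated on 7 of 16 arrays) and the lymphocyte genes were higher in the same week. The blood list mean was 2.54 ± 0.43 at week 3, 5.43 ± 0.77 at week 9, 3.11 ± 1.39 at week 15 and 4.39 ± 0.70 at week 18 (SD, n = 4 each). Wt1 rose by 1.82 at week 9 (SE 0.32, limma adjusted p = 0.020). In the liver list Cyp2e1, which fat also expresses, fell by 3.02 at week 9 and rose by 3.70 at week 18 (limma adjusted p = 0.036 and 0.044), while the mean of the list median was -5.57 to -2.37 in the 4 weeks. The part of blood, epididymis or scan date in the differences between weeks was not tested.

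The LFC arrays of the same weeks showed a like order of weeks in the adipocyte and T and NK cell lists. Their adipocyte medians were 3.96 at week 9, 3.59 at week 15 and 5.40 at week 18, against high fat means of 4.04, 3.38 and 5.46. The T and NK cell medians were -0.23, -1.76 and -3.17, against -0.38, -2.49 and -3.36. Thrsp stood at 3.52, 3.17 and 5.77 on LFC, and Lcp2 at 0.36, 1.27 and -1.74. Lipogenesis at week 9 was an exception in level, with an LFC median of 3.02 against 1.61 to 2.19 on the 4 high fat arrays. The mesothelium list was an exception in order. Its LFC medians were 0.57 at week 9, -0.09 at week 15 and -3.74 at week 18, against high fat means of -0.14, 0.18 and -0.36. Late minus early on the high fat diets minus that on LFC was called at 0 of 27265 probes (limma, 256 at an unadjusted p below 0.05, 0.939%, 19 arrays). With 3 LFC arrays and the LFC week 3 array left out, its median standard error was 0.81, against 0.34 for late against early, and smaller differences in response between diets were not detectable. LFC week 9 was thus the only early LFC array. Its epididymis list median was 3.62, against -5.75 to -2.85 on the high fat arrays of week 9. On LFC that median was -6.67 at week 15 and -6.97 at week 18. The part of epididymis RNA in the LFC comparisons was not tested.

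The late minus early difference was called as unequal among the 4 high fat diets at 0 of 27264 probes (limma F test, 1863 at an unadjusted p below 0.05, 6.83%). Each diet had 2 arrays per period, and without the HF5 week 18 array 6 probes passed. The difference had 1 sign in all 4 diets at 3059 probes (11.2%), no more than signs set at random would give.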

How the data were processed

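Each scanner file holds 1 array of 1-colour labelled RNA (45220 spots, 43803 not controls, 40628 probes). Per the file headers, the deposited intensity values are processed signals that Feature Extraction had background-subtracted and detrended within the array. The submitters' processing notes name Agilent Feature Extraction 9.1. The authors' deposited table of log2 differences from LFC of the same time point was not used. The 4 week 9 arrays hold intensities rounded to 3 significant digits. The arrays lay on 13 slides and 4 scan dates, and their number limits the precision.

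The log2 processed intensity of each spot was taken minus the array's 75th percentile, outlier spots were set to missing, and spots of a probe were averaged. The fits took probes that 8 or more of the 16 arrays held well above background, and used limma version 3.58.1 under R version 4.3.3 (data.table version 1.17.8, statmod version 1.5.0), two-sided, with Benjamini-Hochberg adjustment and a threshold of 0.05. Late against early had diet as a block. The weeks inside a period were compared in a fit with the 4 weeks as a factor. A further fit set high fat against 3 LFC arrays, and an F test compared diets. For a probe at background in every array of a week, the other week's mean was set against a floor: on each array the dimmest signal still well above background, or the probe itself if brighter. Scripts were tested on simulated data.

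Of 40628 probes 28136 matched a RefSeq symbol (69.3%), used for names. A gene of a list was represented by its brightest tested probe. The 38 lists held 466 genes, of which 433 were tested, 29 were not and 4 were not on the array. Members and lists were chosen with earlier results of these data known. The named genes were, for late against early, those past the threshold with 1 sign in all diets or else the 3 smallest p per direction, also with the time point as a random block. For the lists they were up to 4 members with the smallest p, and for the other comparisons up to 3 per direction. Members past the threshold within a period, the 3 genes without overlap, Ifng, Adipoq, Fasn, Lep, Plin1, Pparg, Adgre1, Cd68, Trem2, Itgax, Gpx5, Wt1 and single list members were named after their values were seen.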

Additional observations from a re-analysis of the deposited data

Results flagged for a closer look

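In each period of 8 arrays, the highest and lowest array was compared with the next for 190 sets of values, and 7 stood apart by Dixon's test, where about 1 in 20 (9.5 of these) would by chance. HF20 at week 18 was lowest in the cytokine list (-3.0, next 2.44), the endothelium list (1.90, next 3.44) and the immediate early list (0.053, next 4.34), and highest in the lysosome list (3.79, next 3.47). HFC at week 3 was lowest in the cytokine list (-2.12, next 1.82), the immediate early list (2.04, next 4.48) and for Crisp1, an epididymal secretory protein (-8.47, next -1.18). Values are log2 levels, and medians over the list.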

How the results depend on the processing

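Late against early called 1 probe as reported. It called 9 with median scaling, 2 with quantile normalization, 3 with array weights, 2 without week 15 and 8 without HFC. It called 0 with normexp correction, with probes well above background on 16 or on 4 of 16 arrays, with the time point, scan date or slide as a random block, over 4 time point means, without week 3, 9 or 18, without HF5, HF20 or HF75, on HFC alone, as a slope over weeks and by the methods' t-test (1777 at an unadjusted p below 0.05). Pairs of weeks, added after seeing the data, called 108 (15 against 3), 0 (18 against 3), 6 (15 against 9) and 413 (18 against 9). Leaving out each array gave 0 to 18 for late against early, 3 to 691 for week 9 against 3, 0 to 843 for week 18 against 15, 0 to 0 for the contrast with LFC and 0 to 6 among diets. Week 9 against 3 (444) became 0 with normexp and 3082 with array weights. Week 18 against 15 (47) became 23 with median scaling, 0 with normexp, 277 with probes well above background on all 16 arrays and 2051 with array weights. The cause was not tested.

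Of the values of named genes under the alternatives, 1742 kept direction and side of the threshold, 143 lost and 17 gained a call, and 6 turned. With normexp Glt28d2 was -0.35, Nap1l5 -0.33 and Gm7684 (week 9 minus 3) 0.085. On HFC alone Apln was 0.012, Per2 -0.25 and Bhlhe41 0.18. No paired analysis was possible because replicate numbers were given in accession order and tie no animals, and diet was already the block. The contrast with LFC could not be fitted without LFC week 9. Signal near background limits dim probes such as 1700040F15Rik.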
